A study of Mus musculus with 24 samples.

Results

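The growth factor receptors of muscle stem cells examined here are 10 genes chosen by name: Fgfr1, Fgfr2, Fgfr3, Fgfr4, Met, Egfr, Igf1r, Igf2r, Insr and Lrp6. All 10 were present among the 17111 genes of the expression table, and all 10 passed the filter on low values that left 16985 genes for testing. Muscle stem cells are the Pax7-expressing cells that repair skeletal muscle, and their RNA was measured by bulk sequencing in 24 mouse libraries, 4 in each of 6 groups. KO cells carried the genotype L2A-Pax7CreER, in which a Cre recombinase driven by Pax7 targets Lamp2a, a splice form of the Lamp2 gene whose protein is the receptor of chaperone-mediated autophagy. WT cells carried the genotype L2A-WT. Each genotype was sampled from uninjured muscle (day 0) and 1 and 4 days after an intramuscular injection of 50 µL of cardiotoxin at 10 µM, a venom toxin that destroys muscle fibres. The labels name no group that carries the Cre allele with intact Lamp2a, so the effects of the allele and of the loss of Lamp2a cannot be told apart. They give no age, and nothing in them ties the 4 libraries of a group to different animals. P-values here therefore reflect the spread among libraries alone, and that spread may be technical.

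As background, growth factor receptors pass signals from outside the muscle stem cell to the RAS-ERK and PI3K-AKT pathways, which control exit from quiescence, division and survival. Met binds hepatocyte growth factor, which is released from the matrix of damaged muscle and prompts quiescent stem cells to activate. The FGF receptors need heparan sulphate as a co-factor, and Fgfr1 and Fgfr4 are the receptors best known in this cell type. Igf1r and Insr are related receptor kinases for the insulin-like growth factors and insulin, whereas Igf2r has no kinase and carries IGF2 to lysosomes for degradation. Egfr binds the EGF family, and Lrp6 is a co-receptor of Frizzled proteins in WNT signalling to beta-catenin.

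Library totals lay between 11.58 M and 22.47 M counts, and values are normalised read counts as the authors deposited them. A count of 3, the floor used here, corresponds to a value between 0.145 and 0.32, and covers counting error only. The whole-gene level of Lamp2 does not show the loss of a single splice form and so checks no label. Lamp2 averaged 582 ± 36.0 in KO and 676 ± 151 in WT at day 0 (SD, n = 4 each). It averaged 390.4 ± 71.7 in KO and 415 ± 35.0 in WT at day 1, and 222 ± 49.3 in KO and 209 ± 13.1 in WT at day 4. The summed level of 11 muscle stem cell markers ranged from 2889 to 3349 in KO and 2469 to 3381 in WT libraries at day 0. It ranged from 4677 to 6001 in KO and 4185 to 5966 in WT at day 1, and from 1142 to 1309 in KO and 1103 to 1268 in WT at day 4. Pax7 itself averaged 75.4 ± 12.3 in KO and 68.9 ± 30.4 in WT at day 0. It stood at 32.0 ± 3.70 in KO and 85.2 ± 10.1 in WT at day 1, and at 85.5 ± 19.9 in KO and 71.3 ± 6.51 in WT at day 4. The 10 macrophage and monocyte markers summed to 19.3 to 46.3 in KO and 18.01 to 112 in WT at day 0. Their sums were 7.93 to 15.5 in KO and 5.95 to 23.8 in WT at day 1, and 843 to 992 in KO and 1005 to 1346 in WT at day 4. In bulk samples, fewer cells of a type and less RNA per cell cannot be told apart.

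Promoters of 7 of the 10 receptors were found in the RefSeq table for GRCm38.p6, all but those of Fgfr1, Insr and Lrp6. The 250 bases before the annotated start are shown for 4 genes with contrasting courses after injury. They are Igf1r and Igf2r, which fell on day 1 in both genotypes, Fgfr4, which rose on day 1 in WT cells, and Met, which rose by day 4. Capitals mark GGGCGG or its reverse complement CCGCCC, a GC box known to bind Sp1-family factors.
Igf1r, chr7:67952007-67952256, plus strand: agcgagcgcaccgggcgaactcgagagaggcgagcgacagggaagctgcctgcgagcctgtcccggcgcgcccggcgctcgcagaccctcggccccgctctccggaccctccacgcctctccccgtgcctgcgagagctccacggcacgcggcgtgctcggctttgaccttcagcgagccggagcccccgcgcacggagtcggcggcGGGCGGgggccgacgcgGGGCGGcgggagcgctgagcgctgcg
Igf2r, chr17:12769707-12769956, minus strand: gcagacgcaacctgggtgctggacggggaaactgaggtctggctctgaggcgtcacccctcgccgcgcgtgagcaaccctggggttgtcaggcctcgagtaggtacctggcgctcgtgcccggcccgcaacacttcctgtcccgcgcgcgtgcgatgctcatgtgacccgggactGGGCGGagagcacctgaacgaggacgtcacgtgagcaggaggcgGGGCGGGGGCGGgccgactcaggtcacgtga
Fgfr4, chr13:55152568-55152817, plus strand: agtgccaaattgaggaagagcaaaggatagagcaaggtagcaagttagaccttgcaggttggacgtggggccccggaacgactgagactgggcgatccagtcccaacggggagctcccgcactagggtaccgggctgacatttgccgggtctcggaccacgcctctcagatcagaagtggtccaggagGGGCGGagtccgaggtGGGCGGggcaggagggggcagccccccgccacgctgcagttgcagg
Met, chr6:17463707-17463956, plus strand: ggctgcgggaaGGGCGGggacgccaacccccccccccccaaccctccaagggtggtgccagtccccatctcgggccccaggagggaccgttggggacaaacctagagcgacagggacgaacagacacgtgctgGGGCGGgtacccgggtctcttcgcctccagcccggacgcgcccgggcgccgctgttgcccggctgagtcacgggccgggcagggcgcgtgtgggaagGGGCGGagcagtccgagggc
The GC box occurred 2 times in the Igf1r window, 3 times in Igf2r, 2 times in Fgfr4 and 3 times in Met, and 32.7% of 32851 promoter windows of this length held at least 1. Windows of all 4 genes were rich in G and C, at 77.6%, 69.2%, 64.0% and 74.0%, against a median of 52.4% over all windows. The other motifs searched, likewise on both strands, were CAGCTG (an E-box of the kind MyoD binds, in 13% of windows), CCAAT (33.8%) and TATAAA (12.4%). These letters were not in the 4 windows shown, so that no motif overlapped another there.

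Over the first day of injury most of the receptors fell in both genotypes. In KO cells, 6 of the 10 were lower at day 1 than at day 0, a comparison in which 45.6% of all genes tested passed in either direction and 21.5% were lower (limma, adjusted p under 0.05). In WT cells, 8 were lower and 2, Fgfr4 and Met, were higher, where 52.6% of all genes passed, 27.7% as higher and 24.9% as lower. The median log2 fold change of the 10 receptors was -0.92 in KO and -1.90 in WT, beside -0.01 in KO and -0.01 in WT over all genes tested. From day 1 to day 4 the course turned round: 6 receptors were higher and 1, Egfr, was lower in KO cells (a direction that flips under quantile normalization), where 49.6% of all genes passed (26.2% higher, 23.4% lower). Likewise 6 were higher and 1, Fgfr4, was lower in WT cells, where 50.4% passed (27.8% higher, 22.6% lower). Against day 0, 3 were higher and 2, Fgfr1 and Egfr, were lower at day 4 in KO cells, where 40.5% of all genes passed (22.3% higher, 18.2% lower). Against day 0 in WT cells, 3 were higher and 4 (Fgfr1, Egfr, Igf1r and Lrp6) were lower, where 44.6% passed (25.7% higher, 18.9% lower). Under quantile normalization 5 were higher and 2 lower in KO cells, with a median log2 fold change of 0.41 against -0.18 without it. In WT cells 4 were higher and 2 lower there, with a median of -0.01 against -0.73. The Fgfr1 direction flipped in both genotypes there. The median change over all genes from day 0 or day 1 to day 4 lay between 0.18 and 0.23 on the log2 scale, and near 0 under quantile normalization. With a stricter filter (8 or more libraries reaching 5) it was -0.25 in KO and -0.21 in WT for day 4 against day 1. Subtracting 0.18 to 0.23 would lower the receptor changes, whereas quantile normalization raised their medians. Modest changes at day 4 thus depend on the normalization. The libraries of day 1 and day 0 did not overlap for 6 receptors in KO cells (40.2% of all genes) and 8 in WT cells (49.5%). Those of day 4 and day 1 did not overlap for 5 in KO (50.1%) and 8 in WT (62.4%), and those of day 4 and day 0 for 5 in KO (28.9%) and 7 in WT (39%). Comparisons within a genotype share libraries, so their counts are not independent of each other.

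**Figure D1:**
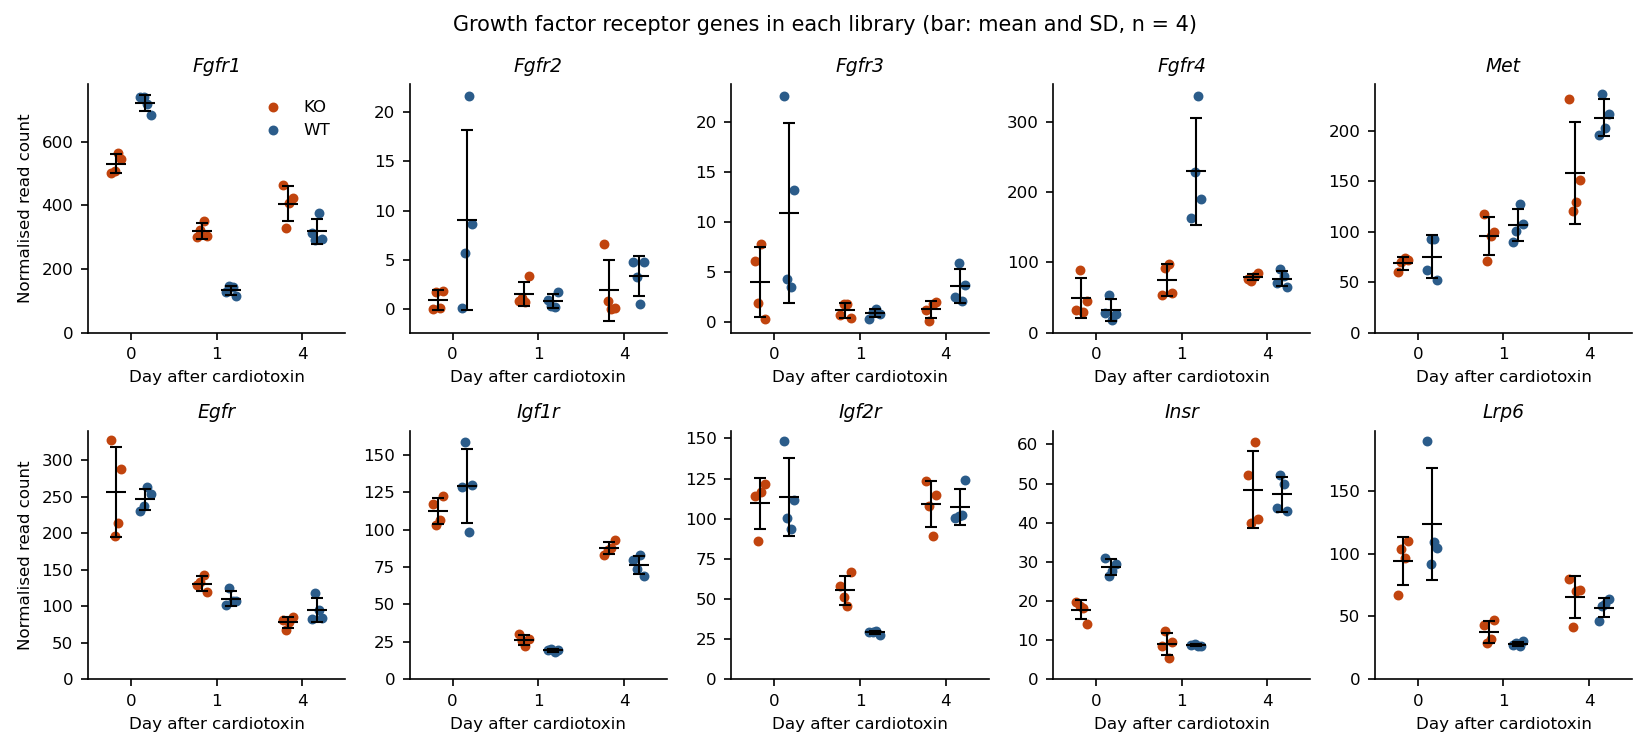
Normalised read count (linear vertical axis) of each of the 10 receptor genes by day after cardiotoxin (horizontal axis), with 1 point per library, KO left of WT, and a bar for the mean and SD of 4 libraries. Fgfr1 in KO libraries at day 1 lies between 299 and 352, all above the WT libraries, whereas Fgfr4 in KO libraries lies between 53.6 and 97.2, all below them.

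Fgfr1, a main FGF receptor of muscle stem cells, differed between genotypes in opposite directions at day 0 and day 1. At day 0 it stood at 502, 509, 564 and 546 in the KO libraries and at 742, 740.5, 719 and 685 in the WT libraries. At day 1 the values were 299, 321, 352 and 305 in KO and 127, 145, 144 and 116 in WT. Every KO library was thus below every WT library at day 0 and above every WT library at day 1. Fgfr1 was lower in KO cells at day 0 by a log2 difference of -0.45 ± 0.11 (SE; limma, adjusted p = 0.012). The call was lost under quantile normalization (-0.33, adjusted p = 0.103), without the mean-variance trend (adjusted p = 0.0908), with library weights (0.336) and with only the 2 groups compared (adjusted p = 0.095). At day 1 it was 2.39-fold higher in KO cells, a log2 difference of 1.26 ± 0.11 (limma, adjusted p = 2.21e-08), and this held under every alternative tried, with values between 0.97 and 1.30. At day 4 the values were 462, 328, 409 and 422 in KO and 314, 290.0, 376 and 294 in WT, with overlapping groups. The difference at day 4 of 0.34 ± 0.11 did not pass (limma, adjusted p = 0.204), although it did without KO day 4 replicate 2 (0.44, adjusted p = 0.0486).

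The course of Fgfr1 over injury differed accordingly. It fell by 0.73 ± 0.11 on the log2 scale at day 1 in KO cells (limma, adjusted p = 8.89e-06) and by 2.44 ± 0.11 in WT cells (limma, adjusted p = 2.18e-14). Between these days the genotype difference changed by 1.70 ± 0.16 (limma interaction, adjusted p = 9.63e-08). Between day 1 and day 4 it rose by 0.34 ± 0.11 in KO cells (limma, adjusted p = 0.0153) and by 1.25 ± 0.11 in WT cells (limma, adjusted p = 2.24e-09). The KO rise was not called without KO day 4 replicate 1 (0.27, adjusted p = 0.0632) or without the mean-variance trend (adjusted p = 0.0892). At day 4 it was lower than at day 0 by 0.40 ± 0.11 in KO and by 1.18 ± 0.11 in WT cells (limma, adjusted p = 0.00649 and 5.45e-09; under quantile normalization the direction flipped, to a called rise of 0.71 in KO, adjusted p = 6.03e-05, and to 0.02 in WT). The KO fall was also not called without the mean-variance trend (adjusted p = 0.0547), with library weights (0.0817) or with DESeq2 (0.0578). The antisense gene Gm16159 shares 164 exon bases with Fgfr1 in GENCODE M21 and had a mean value of 1.75 over the 24 libraries.

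Fgfr4, a receptor linked in mouse to muscle regeneration, showed the opposite genotype difference at day 1. At day 0 its values were 31.8, 89.6, 29.8 and 45.3 in KO and 28.0, 54.1, 18.2 and 26.2 in WT. At day 1 they were 53.6, 92.3, 97.2 and 56.5 in KO and 162, 228, 337 and 189.9 in WT. The WT libraries of day 1 thus stood above all other libraries of the series for this gene. In WT cells Fgfr4 rose 7.33-fold over the first day (log2 fold change 2.87 ± 0.32; limma, adjusted p = 5.24e-08), the only rise above 1 on the log2 scale among the 10 receptors in that comparison. In KO cells the change of 0.69 ± 0.32 did not pass (limma, adjusted p = 0.077), but did without KO day 0 replicate 2, the library at 89.6 (1.02, adjusted p = 0.00664). Fgfr4 was 3.03-fold lower in KO than in WT cells at day 1, a log2 difference of -1.60 ± 0.32 (limma, adjusted p = 0.00118), within -1.75 to -1.39 and called under every alternative tried. The change of the genotype difference from day 0 to day 1 was -2.18 ± 0.45 (limma interaction, adjusted p = 0.00182).

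By day 4 the Fgfr4 values of the 2 genotypes overlapped, at 76.4, 73.8, 80.9 and 84.1 in KO and 71.1, 90.5, 80.2 and 65.0 in WT. The 95% interval of the log2 genotype difference was -0.60 to 0.70. From day 1 to day 4 Fgfr4 fell by 1.52 ± 0.32 in WT cells (limma, adjusted p = 0.000319), and in KO cells the change was 0.12 ± 0.32 (limma, adjusted p = 0.773; 0.84 and 0.0232 under quantile normalization). Against day 0, the WT level at day 4 was higher by 1.35 ± 0.32 (limma, adjusted p = 0.00119) and the KO level by 0.81 ± 0.32 (limma, adjusted p = 0.042). The KO call was lost in 11 of the 35 alternatives: edgeR (adjusted p = 0.123), library weights, no mean-variance trend, a fit of just the groups compared, and leaving out KO day 0 replicate 1, 3 or 4 or any 1 KO day 4 library (limma, adjusted p between 0.0604 and 0.139). The change of the genotype difference between day 1 and day 4, 1.65 ± 0.45 (limma interaction, adjusted p = 0.0343), was not called by edgeR (adjusted p = 0.0508), nor by limma without the mean-variance trend. It was also lost without WT day 1 replicate 2 or 3, KO day 1 replicate 1 or 4, or replicate 1, 3 or 4 of day 4 in either genotype, at values between 1.44 and 1.67 (limma, adjusted p between 0.0509 and 0.0897).

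Fgfr2 and Fgfr3, the other FGF receptors, were low. For Fgfr2 the counts were 0, 24, 1 and 20 reads in KO and 1, 78, 281 and 129 in WT at day 0. They were 15, 23, 13 and 63 in KO and 22, 7, 4 and 35 in WT at day 1. At day 4 they were 83, 10, 0 and 1 in KO and 69, 45, 9 and 83 in WT. At day 0 the WT libraries thus ranged from 1 to 281 reads. Fgfr2 was lower at day 1 than at day 0 in WT cells (-1.89 ± 0.72; limma, adjusted p = 0.03) with overlapping groups, and the call was lost in 8 of the 34 alternatives that tested it, since the stricter filter left out Fgfr2 and Fgfr3. These were only the groups compared, a pseudocount of 0.5, edgeR, and leaving out WT day 0 replicate 2, 3 or 4 or WT day 1 replicate 2 or 3, with values down to -1.27 (limma, adjusted p up to 0.14) without WT day 0 replicate 3. Without WT day 0 replicate 1 Fgfr2 was called lower in KO than in WT at day 0 (-2.72, adjusted p = 0.00803), against -1.88 and an adjusted p of 0.102 with all libraries. Fgfr3 had 6.07, 1.90, 7.76 and 0.228 in KO and 22.6, 4.27, 3.43 and 13.1 in WT at day 0, and between 0.311 and 1.80 in the libraries of both genotypes at day 1. At day 4 it had 0.0411 to 1.98 in KO and 2.10 to 5.91 in WT. In WT cells it fell by 2.37 ± 0.57 over the first day (limma, adjusted p = 0.00114), a call kept in the 34 alternatives that tested it, with values from -3.70 to -1.27. In GENCODE M21, Fgfr2 shares 314 exon bases on the same strand with Ctbp2, which had a mean value of 43.4. Fgfr3 shares 998 exon bases with G630022F23Rik on the opposite strand, which was not among the 17111 genes. The part of these overlaps in the low counts was not tested.

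Met, the receptor of hepatocyte growth factor, rose in both genotypes over the course of injury. Its values at day 0 were 59.6, 69.6, 74.3 and 71.9 in KO and 62.2, 93.3, 93.1 and 52.5 in WT. At day 1 they were 117, 71.5, 95.8 and 100.2 in KO and 89.6, 101, 128 and 108 in WT. Met values at day 4 were 231, 121, 129.7 and 152 in KO and 196, 237, 203 and 217 in WT. All day 4 libraries stood above all day 0 libraries of their genotype. At day 4 Met was 2.21-fold higher than at day 0 in KO cells (1.15 ± 0.21; limma, adjusted p = 8.83e-05) and 2.89-fold higher in WT cells (1.53 ± 0.21; limma, adjusted p = 1.68e-06). Most of this came after day 1, with a rise of 0.69 ± 0.21 in KO (limma, adjusted p = 0.0077) and 1.00 ± 0.21 in WT (limma, adjusted p = 0.000299). The day 1 rise in WT cells, 0.53 ± 0.21 (limma, adjusted p = 0.0346), was lost in 9 alternatives. These were quantile normalization (0.40, adjusted p = 0.106), library weights, no mean-variance trend, a fit of just the groups compared, and leaving out WT day 0 replicate 1 or 4 or WT day 1 replicate 2, 3 or 4 (0.37 to 0.55; limma, adjusted p between 0.0503 and 0.146). In KO cells the day 1 change was 0.46 ± 0.21 (limma, adjusted p = 0.072), and it was called without KO day 1 replicate 2 (0.59, adjusted p = 0.0304) or KO day 4 replicate 1 (adjusted p = 0.0454). The log2 genotype difference at day 4 had a 95% interval of -0.90 to -0.05 and did not pass (limma, adjusted p = 0.467). Markers of macrophages moved with the day 4 rise of Met. Of 10, 8 were higher at day 4 than at day 0 in KO cells, beside 22.3% of all genes, and 10 in WT cells, beside 25.7%. Their part in the result was not tested.

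Egfr, the receptor of EGF and of heparin-binding EGF, fell at day 1 and stayed low at day 4. At day 0 its values were 327, 196, 214 and 289 in KO and 231, 237, 264 and 254 in WT. At day 1 they were 129, 133, 143 and 119 in KO and 102, 125, 107 and 107 in WT, and at day 4 they were 80.5, 67.8, 77.7 and 85.7 in KO and 82.2, 119, 95.2 and 83.5 in WT. The highest day 1 library lay below the lowest day 0 library in both genotypes. Egfr fell at day 1 by 0.94 ± 0.15 in KO and by 1.16 ± 0.15 in WT cells (limma, adjusted p = 2.48e-05 and 1.04e-06). At day 4 it was 3.21-fold lower than at day 0 in KO cells (-1.68 ± 0.15) and 2.60-fold lower in WT cells (-1.38 ± 0.15; limma, adjusted p = 4.21e-09 and 9.78e-08). The further fall from day 1 to day 4 in KO cells, -0.75 ± 0.15 (limma, adjusted p = 0.000311), turned to 0.05 under quantile normalization. The WT change of -0.22 ± 0.15 (limma, adjusted p = 0.233) turned to a called rise of 0.57 (adjusted p = 0.00312) under that normalization, and was called as lower with library weights (-0.27, adjusted p = 0.0246). No genotype difference of Egfr passed at any day. Its 95% intervals were -0.29 to 0.35 at day 0, -0.07 to 0.57 at day 1 and -0.59 to 0.05 at day 4. Egfros, an antisense gene within Egfr that was chosen after its values were seen, averaged 18.9 ± 10.3 in KO and 26.1 ± 13.2 in WT at day 0 and shares no annotated exon base with Egfr.

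**Figure D2:**
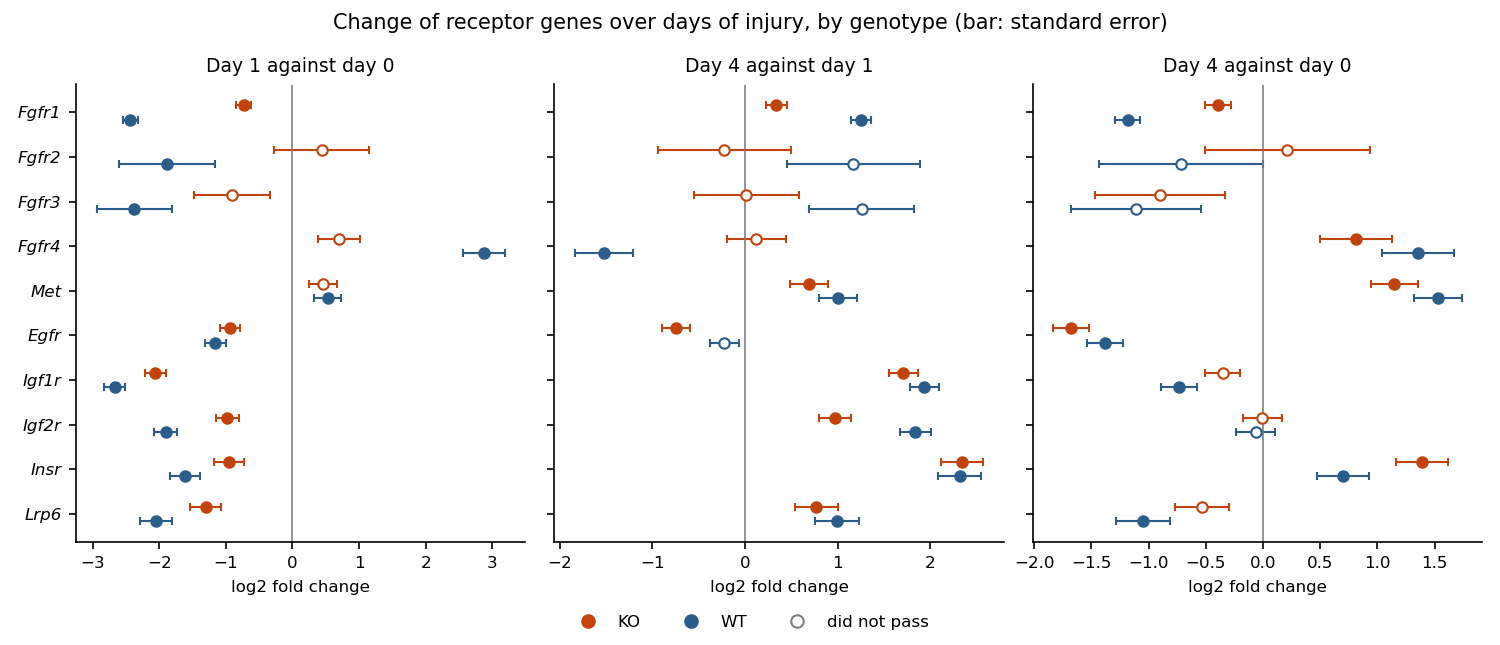
Log2 fold change (horizontal axis) of each receptor gene (rows) for day 1 against day 0, day 4 against day 1 and day 4 against day 0. KO lies above WT, with a bar of 1 standard error from the model over all 24 libraries, and open circles for changes that did not pass. At day 1 Igf1r, Igf2r, Insr, Lrp6, Egfr and Fgfr1 lie left of 0 in both genotypes and further left in WT, and Fgfr4 lies at 2.87 in WT. Values under quantile normalization are not drawn. There the day 4 against day 0 changes of Fgfr1 and Igf2r and the day 4 against day 1 changes of Egfr were above 0.

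Igf1r, the receptor kinase for IGF1 and IGF2, fell at day 1 and came most of the way back by day 4. At day 0 it stood at 117, 103, 107 and 122 in KO and at 129, 159, 98.3 and 129.9 in WT. At day 1 the values were 30.2, 25.8, 22.4 and 26.6 in KO and 19.6, 19.8, 17.9 and 19.3 in WT. Every day 1 library was thus far below every day 0 library of its genotype. At day 4 the values were 83.4, 86.7, 87.7 and 92.8 in KO and 79.7, 73.4, 82.9 and 69.1 in WT. Igf1r was 4.17-fold lower at day 1 than at day 0 in KO cells (-2.06 ± 0.15; limma, adjusted p = 1.51e-10) and 6.36-fold lower in WT cells (-2.67 ± 0.15; limma, adjusted p = 1.26e-12). It then rose by 1.71 ± 0.15 in KO and by 1.94 ± 0.15 in WT cells to day 4 (limma, adjusted p = 2.05e-09 and 3.54e-10). Day 4 against day 0 did not pass in KO cells (limma, adjusted p = 0.0714) and was lower by 0.73 ± 0.15 in WT cells (limma, adjusted p = 0.000466; -0.04 and 0.846 under quantile normalization). At day 1 every KO library was above every WT library. The log2 difference of 0.43 ± 0.15 did not pass (limma, adjusted p = 0.0934) but did with library weights (adjusted p = 0.00182) and with only the 2 groups compared (0.0405).

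Igf2r, which clears IGF2, fell and returned in the same way, and differed by genotype at day 1. At day 0 its values were 114, 86.1, 117 and 122 in KO and 149, 100.2, 93.6 and 111 in WT. At day 1 they were 57.8, 51.0, 45.6 and 66.8 in KO and 29.5, 29.6, 29.7 and 27.6 in WT, without overlap. At day 4 they were 123, 108, 89.4 and 115 in KO and 101, 101, 102 and 124 in WT, near the values of day 0. Igf2r was 1.85-fold higher in KO than in WT cells at day 1, a log2 difference of 0.89 ± 0.17 (limma, adjusted p = 0.000824), called under every alternative with values from 0.79 to 0.97. It fell at day 1 by 0.98 ± 0.17 in KO and by 1.90 ± 0.17 in WT cells (limma, adjusted p = 4.43e-05 and 1.72e-09). It rose again to day 4 by 0.97 ± 0.17 in KO and by 1.84 ± 0.17 in WT cells (limma, adjusted p = 4.25e-05 and 3.63e-09). The genotype difference changed by 0.93 ± 0.24 from day 0 to day 1 (limma interaction, adjusted p = 0.0119; 0.74 and 0.0682 under quantile normalization). From day 1 to day 4 it changed by -0.87 ± 0.24 (limma interaction, adjusted p = 0.0371), a call lost in 14 of 35 alternatives. These were quantile normalization, no mean-variance trend, and leaving out any 1 WT library of day 1 or day 4, KO day 1 replicate 1 or 4, or KO day 4 replicate 2 or 3 (-0.90 to -0.78; limma, adjusted p between 0.0539 and 0.097). Day 4 against day 0 was -0.01 in KO and -0.06 in WT cells, and became a called rise of 0.63 in KO and 0.71 in WT under quantile normalization. Airn, a long noncoding RNA read from the opposite strand within Igf2r and also chosen after its values were seen, had its highest values at day 0. It averaged 239 ± 49.3 in KO and 317 ± 24.1 in WT at day 0, 47.6 ± 8.86 in KO and 24.8 ± 3.20 in WT at day 1, and 14.4 ± 6.39 in KO and 20.8 ± 9.06 in WT at day 4. It shares no annotated exon base with Igf2r, but the strand setting of the counting is not stated. Reads from introns of either gene that fall on exons of the other therefore cannot be told apart from its own.

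Insr, the insulin receptor, fell at day 1 and then rose above its starting level. At day 0 its values were 19.8, 18.6, 18.2 and 14.2 in KO and 31.0, 26.5, 27.6 and 29.5 in WT, without overlap. The difference of -0.67 ± 0.23 did not pass (limma, adjusted p = 0.0619), but did with a pseudocount of 5 (adjusted p = 0.0448), without the mean-variance trend (0.044), with DESeq2 (0.0133) and without KO day 1 replicate 3 (0.043). At day 1 the values were 8.47, 12.2, 5.40 and 9.60 in KO and 8.70, 8.97, 8.51 and 8.44 in WT. At day 4 they were 52.3, 40.0, 60.7 and 40.9 in KO and 43.7, 52.2, 50.0 and 43.0 in WT. The day 4 level was thus the highest of the 3 days in both genotypes. Insr fell by 0.95 ± 0.23 in KO and by 1.62 ± 0.23 in WT cells at day 1 (limma, adjusted p = 0.00136 and 2.13e-06). It was then 5.08-fold higher at day 4 than at day 1 in KO and 4.98-fold higher in WT cells (limma, adjusted p = 6.44e-09 and 1.1e-08). Against day 0 it was higher at day 4 by 1.39 ± 0.23 in KO (limma, adjusted p = 2.8e-05) and by 0.70 ± 0.23 in WT (limma, adjusted p = 0.015; 0.0529 with library weights). The macrophage markers given beside Met moved with this rise as well, and their part in it was not tested.

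Lrp6, the WNT co-receptor, fell at day 1 and recovered in part. At day 0 it had 66.7, 104, 96.7 and 110.5 in KO and 189.7, 91.6, 109 and 105 in WT. At day 1 the values were 43.1, 29.0, 31.7 and 47.1 in KO and 27.1, 28.5, 26.0 and 30.4 in WT. At day 4 they were 79.8, 41.5, 70.2 and 71.1 in KO and 46.3, 58.2, 59.7 and 63.9 in WT. The day 0 and day 1 libraries did not overlap in either genotype, whereas KO day 4 overlapped both. Lrp6 fell by 1.30 ± 0.24 in KO and by 2.05 ± 0.24 in WT cells at day 1 (limma, adjusted p = 7.53e-05 and 1.15e-07). It rose to day 4 by 0.77 ± 0.24 in KO and by 0.99 ± 0.24 in WT cells (limma, adjusted p = 0.00902 and 0.00123). In WT cells it was still lower at day 4 than at day 0 by 1.05 ± 0.24 (limma, adjusted p = 0.000815), which became -0.51 under quantile normalization (adjusted p = 0.102). The KO change of -0.53 ± 0.24 did not pass (limma, adjusted p = 0.0741), but did without KO day 0 replicate 1 (-0.69, adjusted p = 0.028) or WT day 0 replicate 1 (adjusted p = 0.0454).

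The genotype comparisons of the receptors are set side by side here. At day 0, 1 of the 10, Fgfr1, was lower in KO cells, where 9.75% of all genes tested passed and 4.93% were lower. At day 1, Fgfr1 and Igf2r were higher and Fgfr4 was lower, where 9.2% of all genes passed (7.12% higher, 2.08% lower). At day 4 no receptor passed with limma, edgeR or DESeq2, 2 had an unadjusted p under 0.05 (Fgfr1 and Met), and 1.05% of all genes passed (0.53% higher, 0.524% lower). The genotype difference changed from day 0 to day 1 for 3 receptors (11.6% of all genes, 7.48% higher and 4.1% lower). It changed from day 0 to day 4 for Fgfr1 (3.99%, 2.01% higher and 1.98% lower) and from day 1 to day 4 for 3 (3.97%, 0.759% higher and 3.21% lower). For Fgfr1 it changed by 0.79 ± 0.16 from day 0 to day 4 (limma interaction, adjusted p = 0.00465), a call lost without the mean-variance trend (adjusted p = 0.0601) and with library weights (0.113). It changed by -0.92 ± 0.16 from day 1 to day 4 (limma interaction, adjusted p = 0.000757), lost under quantile normalization (-0.60, adjusted p = 0.0591). Values of both genotypes at day 1 did not overlap for 4 receptors, Fgfr1, Fgfr4, Igf1r and Igf2r, beside 26.2% of all genes tested. At day 0 this held for Fgfr1 and Insr, beside 6.97% of all genes, and at day 4 for Fgfr3 and Igf1r, beside 7.7%. Median log2 differences of the 10 receptors were -0.27, 0.32 and 0.02 at days 0, 1 and 4, beside -0.000162, -0.03 and -0.03 over all genes.

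**Figure D3:**
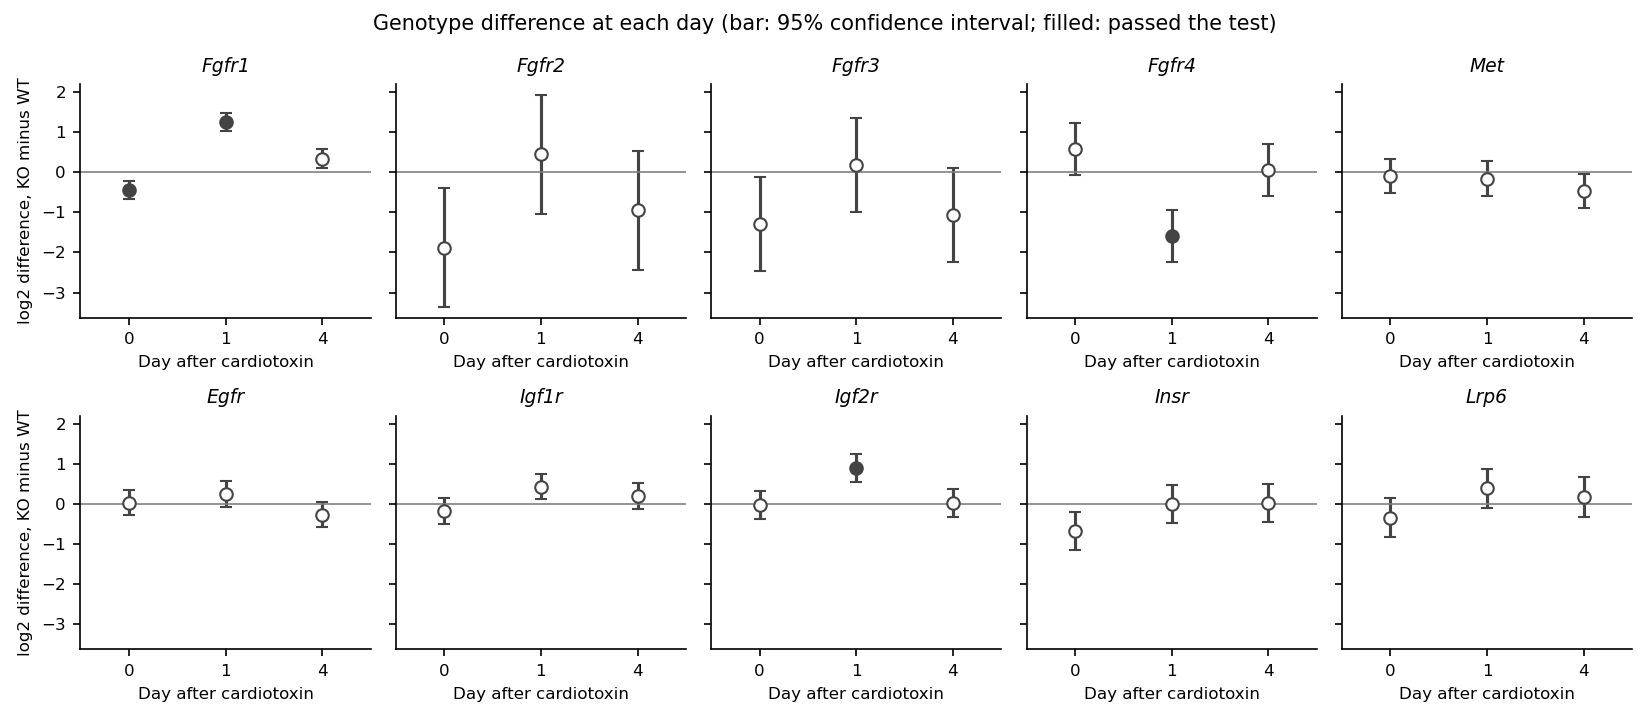
Log2 difference KO minus WT (vertical axis) of each receptor gene at days 0, 1 and 4 (horizontal axis), with a 95% confidence interval as a bar and filled circles for differences that passed. Fgfr1 lies at -0.45 at day 0 (a call lost under quantile normalization) and at 1.26 at day 1, Fgfr4 at -1.60 and Igf2r at 0.89 at day 1, and the intervals of Fgfr2 and Fgfr3 are the widest.

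Markers of some other cell types also differed between genotypes. The 10 fibro-adipogenic progenitor markers summed to 2106 to 2515 in KO and 937 to 1254 in WT at day 0. The sums were 1722 to 2478 in KO and 872 to 1261 in WT at day 1, and 1378 to 3425 in KO and 1823 to 2624 in WT at day 4. Of the 10, 3 (Col1a1, Col3a1 and Gsn) passed as higher in KO at both day 0 and day 1, beside 4.82% and 7.12% of all genes, and under quantile normalization 1 passed at day 1. Pdgfra, the defining marker of that cell type, had 0 counts in all 4 WT libraries at day 0. The 4 KO libraries held 27 together, 26 of them in 1 library, and no group mean was above 7.12. The 7 myofibre markers measured summed to 26.0 to 65.0 in KO and 3.76 to 8.74 in WT at day 0. There 3 of 7 passed as higher in KO (1 under quantile normalization), beside 4.82% of all genes. At day 1 they summed to 14.9 to 47.1 in KO and 141 to 199 in WT, where 5 of 7 passed as lower in KO, beside 2.08% of all genes. The day 0 calls of fibro-adipogenic and myofibre markers rest on a spread shared by all 6 groups. A fit of the day 0 groups alone called 68 of all genes, against 1656. Endothelial markers summed to 84.8 to 182 in KO and 142 to 273 in WT at day 0 and to 14.8 to 22.96 in KO and 23.5 to 40.4 in WT at day 1. Of the 7 tested, 0 passed at either day (1 as lower at day 0 under quantile normalization), beside 9.75% and 9.2% of all genes. At day 1 smooth muscle and pericyte markers summed to 307 to 401 in KO and 211 to 278 in WT, and Schwann and glial markers to 141 to 168 in KO and 177 to 229.9 in WT. There 1 of 7 smooth muscle and pericyte markers passed as higher in KO, and 0 of 6 Schwann and glial markers passed, beside 9.2% of all genes. Among the muscle stem cell markers, day 1 gave 2 as higher and 5 as lower in KO (0 and 5 under quantile normalization), beside 7.12% and 2.08% of all genes. Pax7 was among the lower ones (-1.39 ± 0.23; limma, adjusted p = 0.000167). Myod1, the factor of myogenic commitment, averaged 1818 ± 291 in KO and 969 ± 207 in WT at that day. The part of these in the genotype differences of Fgfr1, Fgfr4 and Igf2r was not tested.

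Levels of different genes were compared per kb of the longest coding transcript. Fgfr1 was the most abundant of the 10 receptors in 5 of the 6 groups. It had a mean of 105 normalised read counts per kb in KO and 143 in WT at day 0, and of 80.4 in KO and 63.2 in WT at day 4. At day 1 it led in KO cells at 63.3 per kb, above Fgfr4 at 22.5, and the libraries of the 2 genes did not overlap. In WT cells at day 1 the order was turned round: Fgfr4 led at 69.0 per kb (48.8 to 101) and Fgfr1 followed at 26.4 (23.1 to 28.9), again without overlap. Per kb of all exons joined, Fgfr4 still led in that group, and Met came before Fgfr1. Egfr was second by its mean at day 0 in both genotypes, at 25.1 per kb in KO, where its libraries overlapped those of Fgfr4, and 24.1 in WT, where it stood apart from the next gene. Fgfr4 (23.7) and Met (23.3) overlapped behind Fgfr1 in KO at day 4, while Met (31.3) stood above Fgfr4 (23.1) in WT. In the lower part of the order Igf2r, Lrp6, Igf1r and Met overlapped at day 0 in both genotypes, at 9.85 to 12.3 per kb in KO and 11.1 to 13.2 in WT. Fgfr2 and Fgfr3 had the lowest means in every group, at 2.56 per kb or less, and overlapped each other. Insr came next by its mean, and its libraries overlapped those of the gene below it in KO at days 0 and 1 and in WT at day 0, where 1 Fgfr3 library reached 5.32 per kb, above all Insr libraries.

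**Figure D4:**
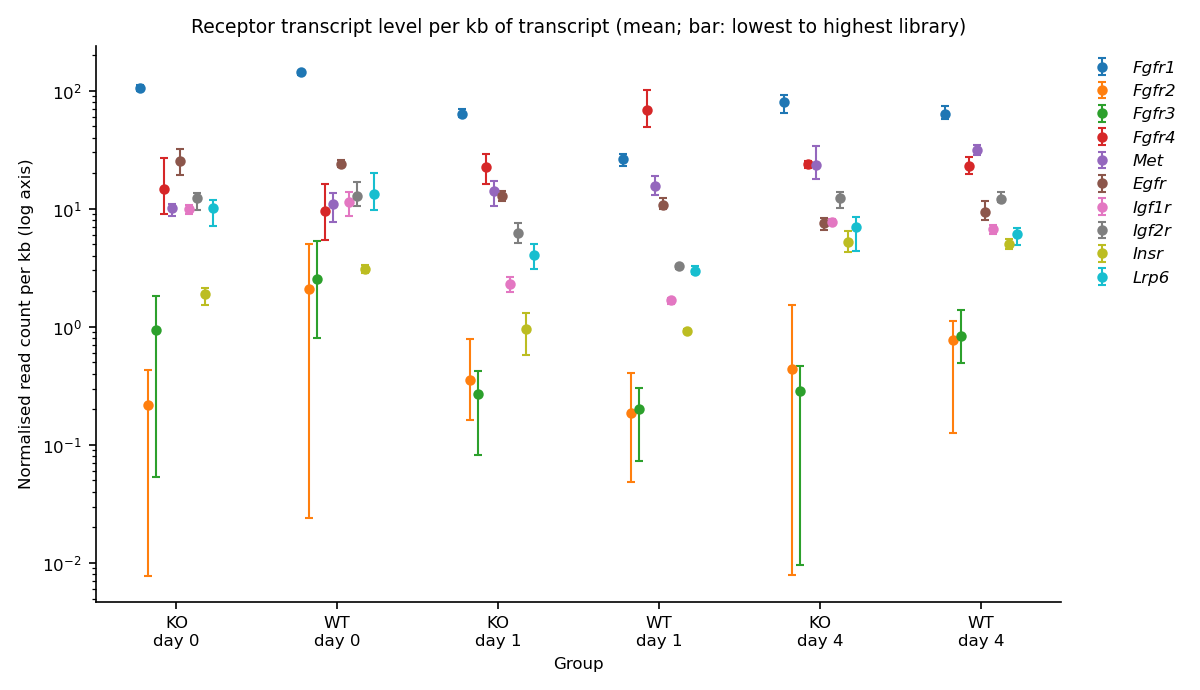
Mean normalised read count per kb of the longest coding transcript (vertical log axis) of each receptor in each group (horizontal axis, KO left of WT at each day), with a bar from the lowest to the highest of 4 libraries. Fgfr1 is on top in each group except WT at day 1, where Fgfr4 at 69.0 lies above Fgfr1 at 26.4.

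Ligands of these receptors were called in both directions between genotypes. Of 22 ligands tested, the KO to WT comparison called 2 as higher and 2 as lower for day 0 (4.82% and 4.93% of all genes) and 2 as higher and 1 as lower for day 1 (7.12% and 2.08%). The day 0 calls here and below rest on a spread shared by all 6 groups. Libraries within a group correlated at r = 0.852 to 0.883 at day 0 and at 0.968 to 0.985 at day 1. With only the 2 groups compared, 68 of all genes were called at day 0, against 1656. Igf1 stood at 104, 90.3, 47.5 and 67.1 in KO and at 16.9, 22.7, 29.5 and 22.3 in WT at day 0, and at 6.19, 6.36, 8.73 and 7.35 in KO and 23.3, 23.1, 15.5 and 18.9 in WT at day 1. It was thus above all WT libraries at day 0 and below all of them at day 1, with log2 differences of 1.68 ± 0.26 and -1.37 ± 0.26 (limma, adjusted p = 0.000157 and 0.00074). Igf2 averaged 28.7 ± 7.42 in KO and 35.3 ± 19.8 in WT at day 0, and 70.8 ± 7.18 in KO and 15.6 ± 2.67 in WT at day 1. At day 4 it averaged 78.1 ± 24.9 in KO and 69.3 ± 8.43 in WT. Igf2 was higher in KO at day 1 by 2.12 ± 0.29 (limma, adjusted p = 1.51e-05). Between day 0 and day 1 the genotype difference changed by -3.05 ± 0.36 for Igf1 and by 2.30 ± 0.41 for Igf2 (limma interaction, adjusted p = 4.23e-06 and 0.000463). Igf2 and its clearing receptor Igf2r were therefore both higher in KO than in WT at day 1.

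Among the other ligands, Wnt4 averaged 8.72 ± 0.49 in KO and 28.9 ± 10.6 in WT at day 0, and 3.22 ± 1.11 in KO and 0.555 ± 0.27 in WT at day 1. It was thus lower in KO at day 0 (-1.55 ± 0.34) and higher at day 1 (1.42 ± 0.34; limma, adjusted p = 0.00444 and 0.00683). Hbegf, a ligand of Egfr, averaged 21.5 ± 9.46 in KO and 16.7 ± 18.02 in WT at day 0. It averaged 31.9 ± 4.31 in KO and 78.9 ± 16.1 in WT at day 1, and 10.8 ± 8.003 in KO and 16.3 ± 2.84 in WT at day 4. It rose at day 1 in WT cells by 2.75 ± 0.54 (limma, adjusted p = 0.000154). Hgf, the ligand of Met, was low in these cells, with group means between 0.788 and 3.50. Fgf2 averaged 4.64 ± 4.57 in KO and 13.6 ± 4.68 in WT at day 0, where it was lower in KO (-1.75 ± 0.55; limma, adjusted p = 0.0422). The lowest KO library of that day held 2 counts of Fgf2, under the floor of 3. At day 1 Fgf2 averaged 13.5 ± 4.76 in KO and 4.01 ± 1.27 in WT, a difference that was not called.

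**Figure D5:**
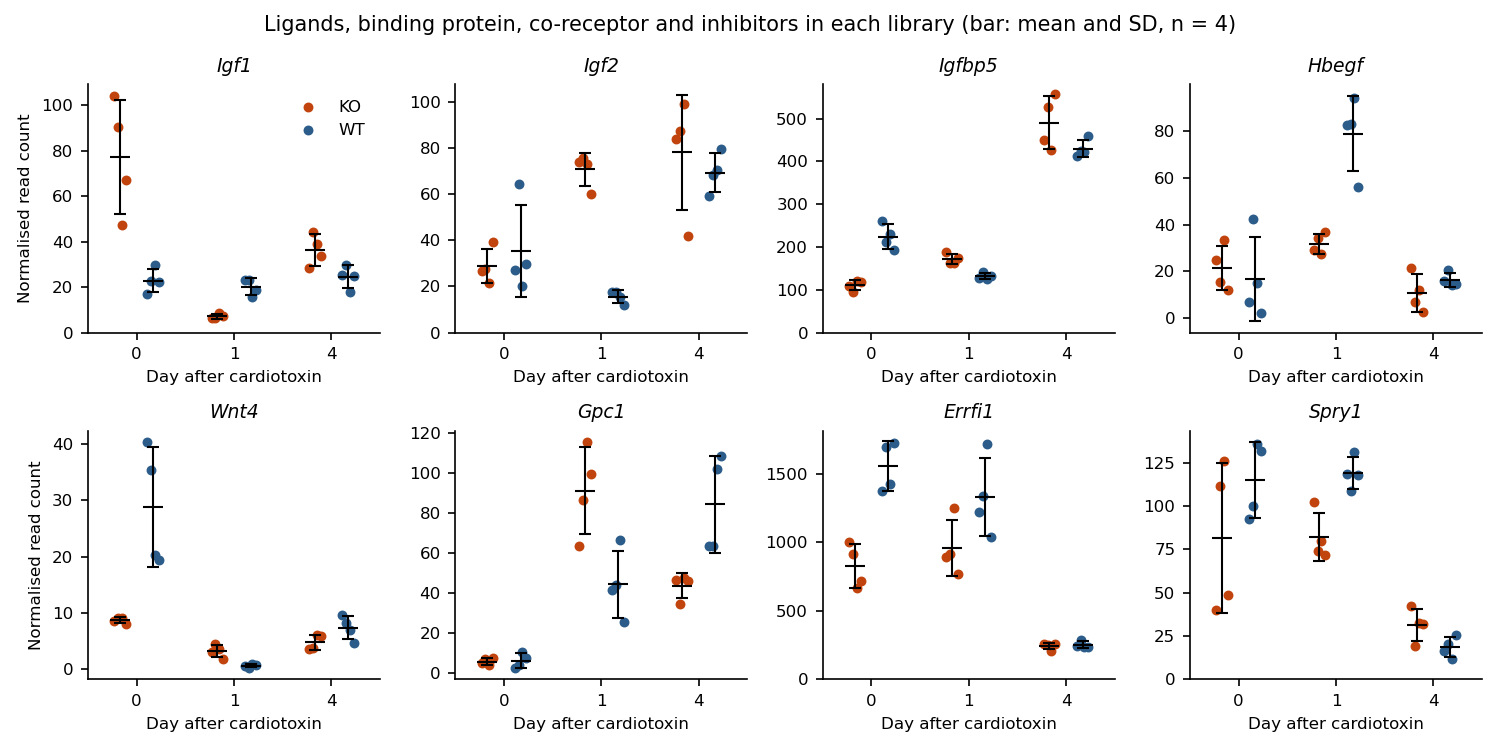
Normalised read count (vertical axis) of 4 ligands (Igf1, Igf2, Hbegf and Wnt4), of the IGF binding protein gene Igfbp5, the heparan sulphate co-receptor Gpc1 and the inhibitors Errfi1 and Spry1 by day after cardiotoxin (horizontal axis), with 1 point per library. KO stands left of WT, and bars give the mean and SD of 4 libraries. At day 1 Igf2 lies between 60.1 and 75.9 in KO, above all WT libraries, and Igf1 lies between 6.19 and 8.73, below them.

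Co-receptors, binding proteins and the enzymes of heparan sulphate changed in both directions. Among 34 co-receptors and heparan sulphate genes, the day 1 comparison of KO with WT called 6 as higher and 2 as lower (3 and 1 under quantile normalization), beside 7.12% and 2.08% of all genes. Ndst1, which sulphates heparan chains (1.66 ± 0.28; limma, adjusted p = 0.000234), the second WNT co-receptor Lrp5 (1.28 ± 0.30; adjusted p = 0.00539) and Cd44, a Met co-receptor (1.10 ± 0.15; adjusted p = 9.16e-06), were among those that were higher. Lrp5 averaged 18.2 ± 4.00 in KO and 6.84 ± 0.92 in WT at that day. Gpc1, a heparan sulphate proteoglycan, averaged 5.79 ± 1.70 in KO and 6.24 ± 3.57 in WT at day 0, and 91.3 ± 21.8 in KO and 44.3 ± 16.9 in WT at day 1. At day 4 it averaged 43.7 ± 6.11 in KO and 84.3 ± 24.2 in WT. Gpc1 rose at day 1 in KO by 3.77 ± 0.33 and in WT by 2.71 ± 0.33 (limma, adjusted p = 2.03e-09 and 2.9e-07). Of 8 IGF binding proteins, 2 passed as higher and 1 as lower in KO for day 0, beside 4.82% and 4.93% of all genes. Igfbp5 was the lower one, at 111 ± 12.3 in KO and 224 ± 28.6 in WT (-1.01 ± 0.12; limma, adjusted p = 5.09e-06). Igfbp6 was higher, at 177 ± 23.01 in KO and 49.0 ± 31.7 in WT (2.06 ± 0.52; limma, adjusted p = 0.0131).

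Below the receptors, the day 1 comparison of KO with WT called 6 of 41 adaptors and kinases as higher and 1 as lower (3 and 1 under quantile normalization), beside 7.12% and 2.08% of all genes. The adaptor Grb2 (1.67 ± 0.28; limma, adjusted p = 0.000246), the mTORC1 activator Rheb (1.15 ± 0.17; adjusted p = 5e-05) and the catalytic PI3K subunit gene Pik3ca (1.08 ± 0.22; adjusted p = 0.00138) were higher. Pik3r1, a regulatory PI3K subunit, was lower (-1.59 ± 0.33; limma, adjusted p = 0.00203). Of 35 genes of feedback inhibition and receptor turnover, 2 rose and 14 fell at day 1 in KO, beside 24.2% and 21.5% of all genes, and 2 rose and 17 fell in WT cells, beside 27.7% and 24.9%. Errfi1, an inhibitor of Egfr, averaged 825 ± 160.5 in KO and 1557 ± 181 in WT at day 0, and was lower in KO (log2 difference -0.93 ± 0.15; limma, adjusted p = 0.000365). Il17rd, an inhibitor of FGF signalling, was lower too at day 0, at 22.2 ± 5.71 in KO and 70.0 ± 17.9 in WT (-1.61 ± 0.33; limma, adjusted p = 0.00222). Both calls share the limit given for the day 0 ligands. Spry1 averaged 82.1 ± 13.9 in KO and 119 ± 9.19 in WT at day 1, and Dusp6 averaged 13.2 ± 2.29 in KO and 24.9 ± 3.32 in WT, with neither called at that day. Among 24 target genes of ERK, FOXO and beta-catenin, 3 passed as higher and 3 as lower in the KO cells of day 1 (2 and 4 under quantile normalization), beside the same shares of all genes. Egr1, an immediate early gene, was among the lower (-1.21 ± 0.28; limma, adjusted p = 0.00554) and Fbxo32, a FOXO target, among the higher (1.80 ± 0.30; adjusted p = 0.000191). Axin2, a target of beta-catenin signalling, had group means of at most 3.91.

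Other receptor kinases were followed over the first day. Of 32 tested, 4 rose and 8 fell at day 1 in KO cells and 2 rose and 11 fell in WT cells, beside 24.2% and 21.5% of all genes in KO and 27.7% and 24.9% in WT. Ret, a receptor of the GDNF family, fell by 3.43 ± 0.30 in KO and by 4.37 ± 0.30 in WT (limma, adjusted p = 1.44e-09 and 1.75e-11). Tek, the angiopoietin receptor and also on the endothelial marker list, fell by 2.91 ± 0.35 in KO and by 2.92 ± 0.35 in WT (limma, adjusted p = 2.85e-07 and 1.97e-07). Csf1r, a kinase and macrophage marker, rose at day 4 to 19.8 ± 2.55 in KO and 30.6 ± 5.20 in WT, against 0.442 ± 0.48 in KO and 0.0797 ± 0.045 in WT at day 1. Pdgfra and Erbb3 were low, with group means of at most 7.12 and 8.60.

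Genes with the most similar course to a receptor over the 24 libraries, by Pearson's r of log2(value + 1), are given as a description. For Fgfr1 they were Samd4 (r = 0.969), Phldb1 (0.967) and Mllt6 (0.963). For Igf1r they were Bmp1 (0.983), Kcnq1ot1 (0.98) and Dst (0.976), and for Igf2r they were Epb41l2 (0.969), Rtn4 (0.96) and Arhgap23 (0.956). For Fgfr4 they were Rnaseh1 (0.868), Tdg (0.859) and Gnpat (0.854), and for Met Pf4 (0.892), Tpm2 (0.891) and Slc37a2 (0.888). Among the receptors themselves the closest pair was Igf1r with Igf2r (0.922), and Fgfr4 ran most against Fgfr1 (-0.863). These libraries share days and scaling, so the values describe a common course only.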

How the data were processed

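RNA of isolated mouse muscle stem cells was prepared with the SMART-Seq v4 Ultra Low Input kit, per the labels' protocols. FastQC, STAR, RSEM and limma with the mm39 build are named in the submitters' processing notes, without versions or order, and the strand setting is not given in the sources used here. The authors deposited normalised signal values, on a linear scale, for 17111 genes in 24 libraries. Each value was a whole count plus 0.5 divided by a scaled library size (per M reads): all values (100%) came out whole within 0.02. All libraries carry batch label 1.

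The test was limma 3.58.1 (R 4.3.3) on log2(value + 1) with a mean-variance trend, over 6 groups of 4 libraries and 12 comparisons (9 pairs of groups and 3 changes of the genotype difference), two-sided. Fold changes are on that scale and understate changes of low genes. A gene entered the test when 4 or more libraries reached a value of 1 (16985 genes, 126 left out), and p-values were adjusted by Benjamini-Hochberg over them at a threshold of 0.05. Changes of the genotype difference were tested as interaction terms. The script was tested on simulated data. Alternatives were no filter, a stricter filter (8 or more libraries reaching 5), quantile normalization, no trend, library weights, only the groups compared, edgeR 4.0.16 with TMM scaling on whole counts recovered from the values, DESeq2 1.42.0 on the same counts, a replicate block, a pseudocount of 0.5 or 5, and leaving out each library in turn.

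The receptors and the gene lists were chosen with earlier results of these data known. All receptors are named. From each list, up to 4 genes per comparison with the largest called change and a mean of at least 8 could be named, plus Hgf, Igf1, Igf2, Fgf2, Spry1, Dusp6, Errfi1, Axin2, Lrp5, Erbb3, Pdgfra, Csf1r, Pax7 and Myod1. No libraries were duplicates. Lengths and overlaps came from GENCODE M21 on GRCm38, another build than the counting, so no gene coordinates are given; promoter windows came from RefSeq.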

Additional observations from a re-analysis of the deposited data

Results flagged for a closer look

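For 4 of the 60 sets of 4 libraries (10 receptors in 6 groups), 1 library stood far from the others by Dixon's ratio, which chance gives for about 1 set in 20. Fgfr2 was at 3.395 in KO day 1 replicate 4, where the other libraries of that group lay between 0.704 and 1.128, and at 6.558 in KO day 4 replicate 1, where the others lay between 0.0341 and 0.863. Igf2r was at 27.64 in WT day 1 replicate 4, where the others lay between 29.5 and 29.7, and at 124.2 in WT day 4 replicate 4, where the others lay between 100.6 and 102.4.

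The genotype difference (KO minus WT, log2) changed between days for 3 receptors in limma interaction tests. For Fgfr1 the change was 1.704 from day 0 to day 1, 0.7887 from day 0 to day 4 and -0.9155 from day 1 to day 4. For Fgfr4 it was -2.183 from day 0 to day 1 and 1.645 from day 1 to day 4. For Igf2r it was 0.9275 from day 0 to day 1 and -0.8699 from day 1 to day 4.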

How the results depend on the processing

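Of 120 receptor values (10 genes in 12 comparisons), 71 passed the threshold in limma or in at least 1 of 35 alternatives (34 for Fgfr2 and Fgfr3, which the stricter filter leaves out) and 49 passed in none. Among the 71, the alternatives gave the same direction and call 2361 times, lost a call 70 times, gained one 31 times and turned the direction 14 times. Where a value changed, the cause was not tested. Quantile normalization turned Fgfr1 at day 4 against day 0 to 0.7113 in KO and 0.02087 in WT, Igf2r to 0.6292 in KO and 0.7058 in WT, and Egfr at day 4 against day 1 to 0.04602 in KO and 0.5698 in WT. DESeq2 gave 0.1287 in KO and 0.05099 in WT for Igf2r at day 4 against day 0. With 1 library left out in turn, Igf2r at day 4 against day 0 ranged from -0.1166 to 0.08489 in KO and from -0.1475 to 0.07286 in WT, and Fgfr4 at day 4 against day 1 in KO from -0.0192 (without KO day 1 replicate 1) to 0.2629.

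The count of receptors called between KO and WT at day 0, 1 of 10, became 0 under quantile normalization, with library weights and with only the groups compared, and 2 with a pseudocount of 5 and with DESeq2. For KO day 4 against day 0 the count of 5 became 3 without the trend and with library weights and 7 under quantile normalization. The genotype difference between day 0 and day 4 had 0 without the trend and with library weights, against 1, and that between day 1 and day 4 had 1 under quantile normalization and without the trend, against 3. Leaving out 1 library gave 1 to 2 called at day 0 (2 without WT day 0 replicate 1 or KO day 1 replicate 3), 0 to 1 at day 4 (1 without KO day 4 replicate 2), and 1 to 3 for the genotype difference between day 1 and day 4.

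Replicate numbers did not pair the libraries: same-numbered libraries' deviations correlated between -0.0236 and 0.27, and no comparison had all pairs over 0.1. With the replicate number as a block, Fgfr4 in KO at day 1 against day 0 was 0.6908 with an adjusted p of 0.0484 (limma), against 0.077 without the block, and no other receptor call changed. Fgfr2 and Fgfr3 are limited by depth, with counts at or under the floor of 3 in some libraries.

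Over all genes, limma called 1656, 1562 and 179 between KO and WT at days 0, 1 and 4. The day 0 count was 309 with library weights, 68 with only the groups compared and 2536 with DESeq2. The day 1 count was 996 under quantile normalization, 4920 with library weights (2759 higher, 2161 lower) and 3958 with only the groups compared (2169 higher, 1789 lower). DESeq2 split its 1749 into 1127 higher and 622 lower, against 1209 and 353 with limma. The day 4 count was 101 with the stricter filter (67 higher, 34 lower), 85 with edgeR (60 higher, 25 lower), 128 with only the groups compared (78 higher, 50 lower) and 117 without WT day 4 replicate 1. DESeq2 gave 230 (146 higher, 84 lower), against 90 higher and 89 lower with limma. The genotype difference changed between day 0 and day 4 for 678 genes, against 227 with library weights, 234 with only the groups compared and 1366 with DESeq2. Between day 1 and day 4 it changed for 675 (129 higher, 546 lower), against 1682 with library weights, 1523 with only the groups compared, and 350 higher and 521 lower with DESeq2. Between day 0 and day 1 DESeq2 gave 1347 higher and 1345 lower, against 1270 and 696. With the stricter filter, day 4 against day 1 had 2564 higher and 3778 lower in KO and 2876 higher and 3629 lower in WT, against 4453 and 3974 in KO and 4719 and 3847 in WT.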
